A study of Mus musculus with 24 samples.

Results

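Respiratory complexes II to V were followed here as 56 mouse genes out of the 24343 genes of the count files. They were taken by symbol: the succinate dehydrogenase genes Sdha to Sdhd with the Sdhaf assembly factors (complex II), Cyc1 and the Uqcr genes (complex III), the numbered Cox genes (complex IV) and the Atp5 genes (ATP synthase, or complex V). 6 isoform genes of complex IV (Cox6a1, Cox6a2, Cox7a1, Cox7a2, Cox8a and Cox8b) were left out by the same rule. The rule uses symbols and no measured value, but it was set with earlier results of these data known. The members fell into 4 subunits and 4 assembly factors of complex II, 9 subunits of complex III, 11 subunits and 9 assembly factors of complex IV, and the supercomplex factor Cox7a2l. The ATP synthase gave 5 genes of its catalytic F1 head, 10 of its stalk and membrane part (Fo), and 2 further Atp5 genes, Atp5md and Atp5mpl. The last member was the pseudogene Cox7c-ps1.

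Complex II (succinate dehydrogenase) is both an enzyme of the citric acid cycle and an entry point for electrons into the respiratory chain. Complex III passes electrons from ubiquinol to cytochrome c, complex IV hands them on to oxygen, and ATP synthase uses the proton gradient built by the chain to make ATP. Apart from complex II, the complexes also hold subunits encoded by the mitochondrial genome, so their nuclear and mitochondrial genes have to be expressed together. Brown and beige fat cells are known for dense, active mitochondria, and Nrf1, GABPA and the estrogen-related receptors are known as regulators of many of these nuclear genes.

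The RNA came from the mouse line 3T3-L1, preadipocytes (fat cell precursors) that turn into fat cells when induced with hormones. There were 4 groups with 3 libraries each, labelled as biological replicates: cells labelled as overexpressing LSD1 at day 7 and at day 0, and control cells at day 7 and at day 0. Day 0 cells were confluent and undifferentiated. Both labels were induced in the same way, with 10 µg/ml insulin, 1 µM dexamethasone, 10 µM rosiglitazone, 500 µM isobutylmethylxanthine and 10% fetal bovine serum, and from day 3 on with insulin and serum. The promoter driving LSD1, and whether the line was 1 clone, are not given in the sources used here. LSD1 and Nrf1 binding was recorded as 6 lists of peaks from chromatin immunoprecipitation (ChIP-seq), 1 sample each. The Nrf1 sample of day 7 names LSD1 cells in its title and control in its genotype label, so the Nrf1 lists are given by day only.

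Library totals over all transcript rows were 27512273 to 37565527 counts. Kdm1a, the gene of LSD1, had 89.4, 104 and 99.0 CPM (counts scaled to the size of their library) in LSD1-labelled cells at day 0, against 79.0, 86.3 and 84.1 CPM in control cells at day 0, a log2 difference of 0.23 ± 0.10 (SE) that did not pass the test (adjusted p = 0.0967). At day 7 it had 54.3, 55.4 and 54.4 CPM in LSD1-labelled cells, against 66.1, 67.6 and 74.5 CPM in control cells, and was lower (-0.34 ± 0.10, adjusted p = 0.00748). The overexpression label is therefore used only as a label. Replicate 1 of the LSD1-labelled cells at day 0 stood apart: its log2 CPM correlated with the other 2 libraries of its group at 0.955 and 0.957, against 0.993 between those 2 and 0.988 to 0.992 within the other groups. Results that rest on it are given with and without it. Fat cell markers (8 genes) summed to 26500 to 32250 CPM in LSD1-labelled cells at day 7, 495 to 623 CPM in the same cells at day 0, 9480 to 11190 CPM in control cells at day 7 and 668 to 844 CPM in control cells at day 0. Preadipocyte and fibroblast markers (8 genes) ran the other way, at 1263 to 1312, 14390 to 19160, 8451 to 8804 and 34130 to 36690 CPM in the same order of groups. Brown fat markers (6 genes) summed to 56.1 to 71.5 CPM in LSD1-labelled cells at day 7 and to 4.26 CPM or less in every other library, nearly all of it from Cox7a1 and Cox8b. The defining brown fat genes Ucp1 and Prdm16 had 3 and 2 counts over all 12 libraries, and Cidea had 18. Markers of macrophages, skeletal muscle and endothelium stayed at or below 5.32 CPM in every library. Those of bone and cartilage (6 genes) summed to 23.8 to 207 CPM, nearly all of it from Sox9 alone.

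Of the 56 genes, 51 passed the filter on low counts and were tested. The 5 others were Cox4i2, the hypoxia-linked isoform of subunit IV, with 36 counts over all 12 libraries, Cox6b2 with 8, Cox7b2 with 5, Cox8c with 0, which allows up to 3, and Cox7c-ps1 with 26. The first 4 of these encode isoforms best known from other tissues, lung in the case of Cox4i2 and testis in the case of Cox6b2. The 51 tested genes are those meant by "tested members" in the rest of the text.

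Differentiation was accompanied by a rise of nearly all complex II to V genes in LSD1-labelled cells and by a smaller rise of many of them in control cells. Between day 7 and day 0 of LSD1-labelled cells, 48 of the 51 tested members rose and 0 fell by edgeR's quasi-likelihood test with Benjamini-Hochberg adjustment over all 13355 tested genes. Of all tested genes, 32.6% rose and 37.2% fell in that comparison. The median log2 fold change was 1.75 over the members and -0.07 over all tested genes. In control cells, 28 members rose between day 7 and day 0, 2 fell and 21 were not called, with a median log2 fold change of 0.55, against -0.01 over all tested genes. There, 23.7% of all tested genes rose and 24.5% fell. The 3 libraries of day 7 were all above the 3 of day 0 for 48 members in LSD1-labelled cells and for 36 in control cells, and all below for 0 and 2 members. The share of all tested genes separated in this way is not given here, so these counts only describe the members. In these bulk samples, fewer cells of a type and less RNA per cell cannot be told apart. All 8 fat cell markers rose with day in both labels, and of the 8 preadipocyte and fibroblast markers 8 fell in LSD1-labelled cells and 7 in control cells, where 1 rose. Their part in the result was not tested. 9 of the control calls (Atp5a1, Atp5b, Atp5h, Atp5j, Atp5k, Atp5md, Sdhaf4, Sdhd and Uqcrh) were lost when some single library was left out, and the number of members that rose in control cells then lay between 20 and 37.

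The rise was steeper in LSD1-labelled cells for most members. A test of the difference between the 2 day effects called 36 members higher and 1 lower in LSD1-labelled cells, with 14 not called. Over all tested genes, 23.9% were called higher and 28.1% lower in this test. Its median over the members was 1.26 log2 units, and over all tested genes -0.06. Set beside each other, 26 members rose in both labels, 20 rose in LSD1-labelled cells and were not called in control cells, and 2 (Atp5h and Atp5l) rose in LSD1-labelled cells and fell in control cells. Cox20 and Sdhaf4 were called in control cells alone, and Cox18 in neither. Of the 37 calls, those of Atp5j, Cox6b1, Cox7b and Cox17 were lost when some single library was left out, with adjusted p of up to 0.11. Atp5h, Atp5l and Cox20 share sequence or position with other genes, as given with each of them. All 8 fat cell markers were called higher in the same test, and 7 of the 8 preadipocyte and fibroblast markers lower.

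**Figure D1:**
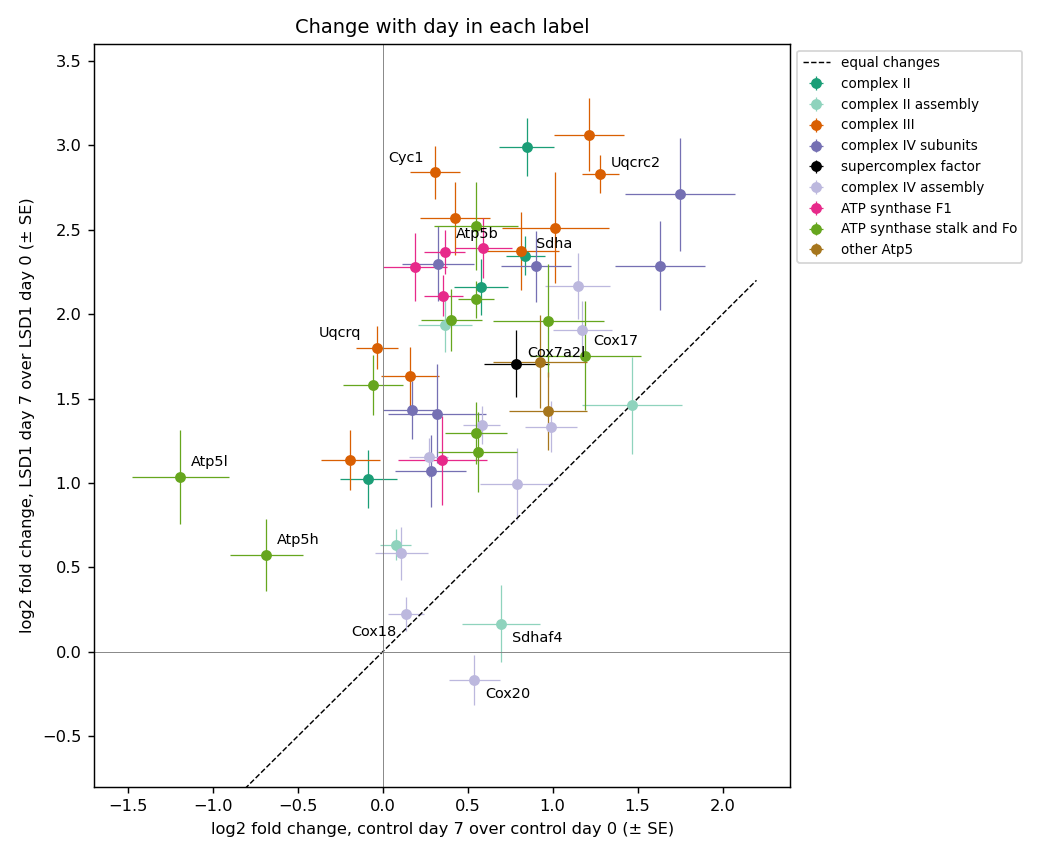
Each point is 1 of the 51 tested genes, placed by its log2 fold change between day 7 and day 0 in control cells (horizontal) and in LSD1-labelled cells (vertical), with bars of 1 SE and colours for the role; the dashed line marks equal changes. 48 of the 51 points lie above the line, and Cox20, Sdhaf4 and Sdhaf3 lie on or below it.

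At day 7 the 2 labels differed directly. 45 members were higher in LSD1-labelled cells than in control cells and 0 were lower, with a median log2 difference of 1.11, against -0.05 over all tested genes, of which 30.2% were higher and 33.4% lower. For 43 of these 45 members all 3 LSD1-labelled libraries lay above all 3 control libraries, and for Atp5e and Cox16 the libraries overlapped. The 6 members not called were Atp5j, Atp5k, Cox19, Cox20, Sdhaf3 and Sdhaf4. For 43 of the 51 tested members, the 3 LSD1-labelled libraries of day 7 were above all 9 other libraries of the series, the exceptions being Atp5e, Atp5h, Atp5k, Atp5l, Cox16, Cox20, Sdhaf3 and Sdhaf4. Here too, the share of all tested genes with such separated libraries is not given, so both counts only describe the members. Of the marker lists, 7 of the 8 fat cell genes were higher and all 8 preadipocyte and fibroblast genes lower in the same comparison. Of the 6 brown fat genes, Ucp1, Prdm16 and Cidea did not pass the count filter. The 3 tested ones (Cox7a1, Cox8b and Elovl3) were called higher. Outside LSD1-labelled cells at day 7, Cox8b and Elovl3 had 0.53 CPM or less. They passed the filter only through LSD1-labelled cells at day 7, so the direction of their calls was fixed in advance. The part of these markers in the result was not tested. The 2 day effects, the day 7 comparison and the test of their difference share libraries and are no independent evidence of each other. 7 of the 45 calls of day 7 (Atp5e, Atp5g2, Atp5mpl, Cox6c, Cox7b, Cox14 and Cox16) were lost when some single library was left out, with adjusted p of up to 0.168.

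**Figure D2:**
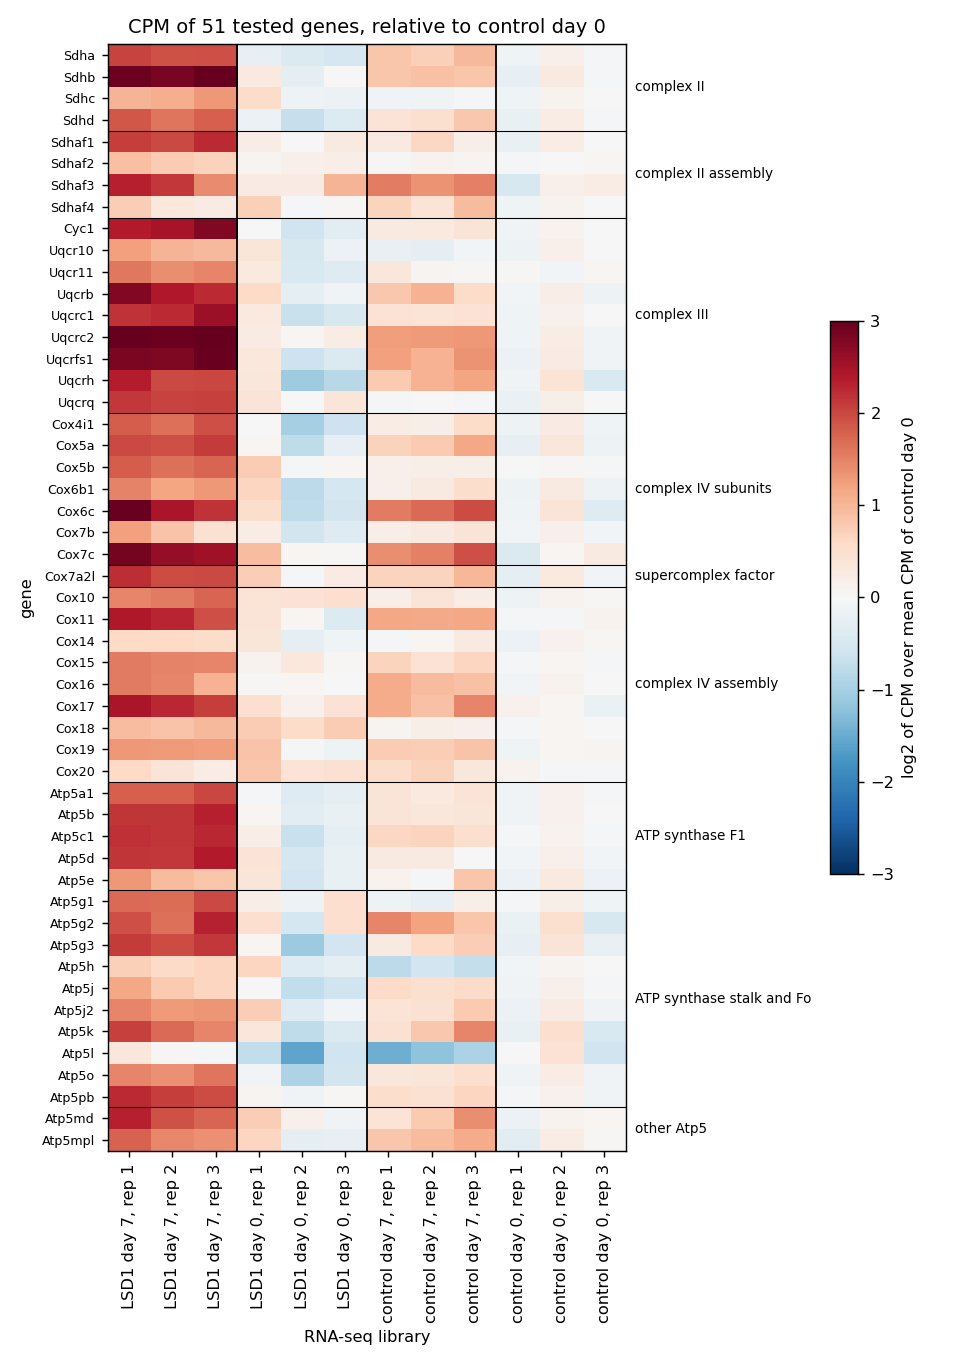
Each row is 1 tested gene and each column 1 RNA-seq library; the colour is the log2 ratio of its CPM to the mean CPM of the 3 control libraries of day 0, red for above and blue for below, and the scale ends at 3 log2 units on either side. The 3 columns of LSD1-labelled cells at day 7 are red for nearly every gene, control cells at day 7 are paler, and replicate 1 of the LSD1-labelled cells at day 0 is redder than the other 2 libraries of its group.

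All tested subunit genes rose in LSD1-labelled cells, while some assembly factors did not pass the test. Of the 35 subunit genes, 35 rose between day 7 and day 0 in LSD1-labelled cells, with a median log2 fold change of 2.11, and 17 rose and 2 fell in control cells, with a median of 0.43. Of the 13 assembly factors, 10 rose in LSD1-labelled cells (median 1.15) and 8 in control cells (median 0.58). The test of the difference between the day effects called 29 of the 35 subunits higher and none lower, and 6 of the 13 assembly factors higher and 1 lower. Beside these counts, 32.6% of all tested genes rose with day in LSD1-labelled cells and 23.7% in control cells. In the test of the difference 23.9% were higher and 28.1% lower, and at day 7 30.2% were higher in LSD1-labelled cells. The same shares stand beside the counts per complex given below. Levels summed over the genes of a role, in CPM per kilobase of transcript, were highest in LSD1-labelled cells at day 7. The F1 genes summed to 6419 ± 447 CPM per kb in LSD1-labelled cells at day 7 and 1366 ± 285 at day 0, and to 1933 ± 37.2 in control cells at day 7 and 1516 ± 136 at day 0 (SD, 3 libraries per group). Complex III genes summed to 5057 ± 260 and 1245 ± 364 CPM per kb in LSD1-labelled cells at day 7 and day 0, and to 1699 ± 24.6 and 1333 ± 87.6 in control cells at day 7 and day 0. The assembly factors of complex IV covered a narrower range, at 502 ± 30.9 and 279.6 ± 50.2 CPM per kb in LSD1-labelled cells at day 7 and day 0, and 325 ± 19.5 and 229.7 ± 9.93 in control cells at day 7 and day 0.

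**Figure D3:**
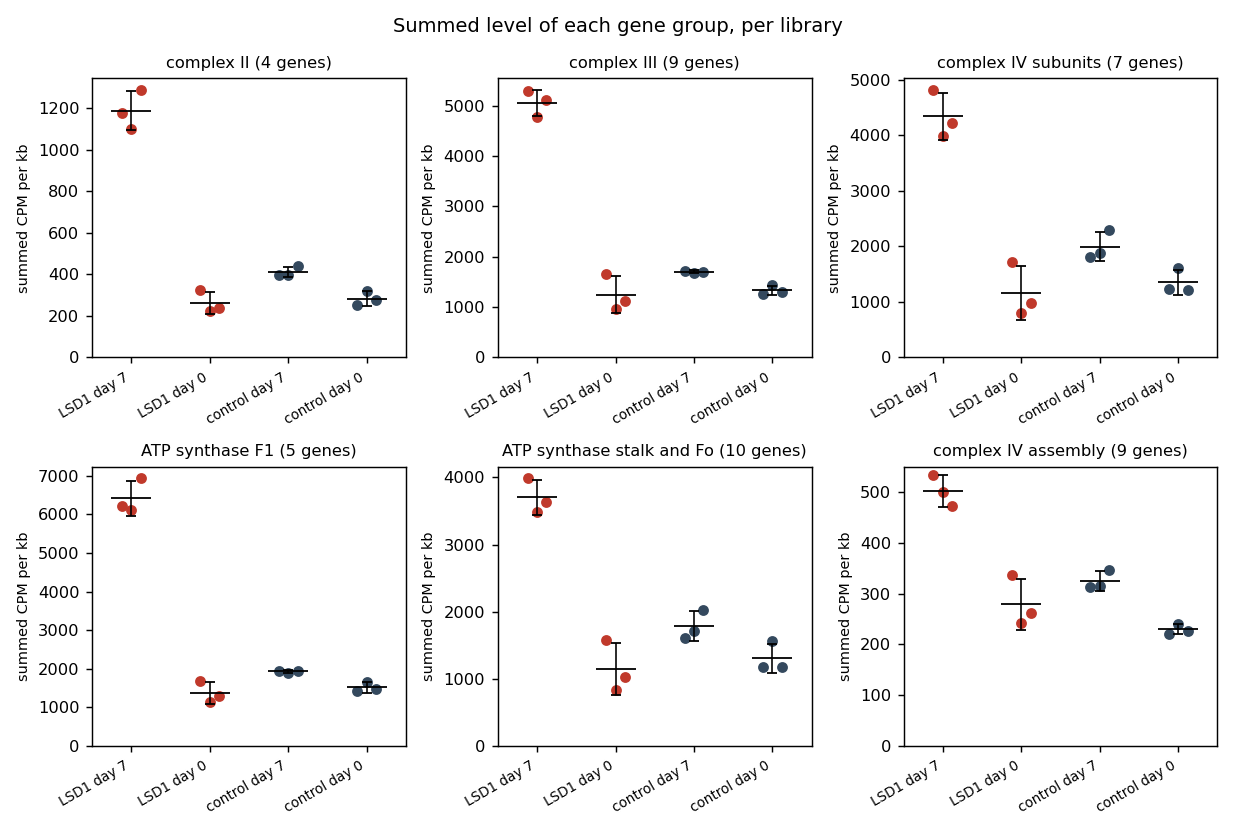
Each panel shows the summed level of the tested genes of 1 role in CPM per kb of transcript on an axis that starts at 0; points are the 3 libraries of a group (red LSD1-labelled, dark blue control) and bars the mean ± SD. In every panel the 3 LSD1-labelled libraries of day 7 lie above all others, with the smallest ratio to control cells at day 7 for the complex IV assembly factors.

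Complex II rose as a whole in LSD1-labelled cells. Sdha, the flavoprotein that oxidises succinate, had 759, 695 and 707 CPM in LSD1-labelled cells at day 7 and 157, 138 and 131 CPM at day 0, and 329.8, 306 and 363 CPM in control cells at day 7 and 169, 207 and 182 CPM at day 0. The groups of day 7 did not overlap with any other group, and those of day 0 stood close together. Its log2 fold change with day was 2.35 ± 0.12 (SE, adjusted p = 1.8e-09) in LSD1-labelled cells and 0.84 ± 0.11 (adjusted p = 6.1e-05) in control cells, a difference of 1.51 ± 0.16 (adjusted p = 7.1e-06). Sdhb, the iron-sulfur subunit, had 545, 515 and 656 CPM in LSD1-labelled cells at day 7 and 87.1, 57.8 and 70.9 CPM at day 0, and 127, 130.1 and 127 CPM in control cells at day 7 and 60.1, 85.5 and 67.8 CPM at day 0. It showed the steepest rise of the 4 subunits in LSD1-labelled cells (2.99 ± 0.17, adjusted p = 7.07e-09) and rose by 0.85 ± 0.16 in control cells (adjusted p = 0.000946). Of the membrane anchors, Sdhd rose in both labels, by 2.16 ± 0.17 in LSD1-labelled and by 0.58 ± 0.16 in control cells (adjusted p = 9.59e-08 and 0.00937). Sdhc had 217, 227 and 263 CPM in LSD1-labelled cells at day 7 and 157, 96.3 and 95.03 CPM at day 0, and 98.2, 99.3 and 104 CPM in control cells at day 7 and 97.5, 114 and 108 CPM at day 0. It rose in LSD1-labelled cells (1.02 ± 0.17, adjusted p = 0.000142), and in control cells its log2 fold change of -0.08 ± 0.17 did not pass (adjusted p = 0.711). Of the 4 assembly factors, Sdhaf1, which helps to place iron-sulfur clusters in Sdhb, had the largest difference between day effects (1.57 ± 0.22, adjusted p = 8.11e-05). Sdhaf2, needed to attach the flavin to Sdha, rose by 0.63 ± 0.09 in LSD1-labelled cells (adjusted p = 3.76e-05). Sdhaf3 rose about equally in both labels, by 1.46 ± 0.29 in LSD1-labelled and 1.47 ± 0.30 in control cells. Sdhaf4 was called only in control cells (0.70 ± 0.23, adjusted p = 0.0238), and that call was lost when any 1 of 4 libraries was left out, with adjusted p of up to 0.11.

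Complex III had the largest median rise of the roles in LSD1-labelled cells. All 9 of its genes rose there (median 2.51), all 9 were higher than in control cells at day 7 (median 1.69), and all 9 were called higher in the test of the difference between day effects (median 1.56). In control cells 4 of the 9 rose. Uqcrc2, a core protein of the complex, had 697, 643 and 679 CPM in LSD1-labelled cells at day 7 and 98.5, 87.7 and 97.6 CPM at day 0, and 199, 203 and 207 CPM in control cells at day 7 and 76.2, 96.8 and 77.6 CPM at day 0. It rose in both labels without overlap, by 2.83 ± 0.11 (adjusted p = 2.61e-10) and 1.28 ± 0.11 (adjusted p = 1.21e-06), and both values were the lowest adjusted p among the members in their comparison. Uqcrc1, its partner core protein, had 956, 999 and 1258 CPM in LSD1-labelled cells at day 7 and 259, 133 and 151 CPM at day 0, and 288, 281 and 284 CPM in control cells at day 7 and 194, 231 and 209 CPM at day 0. It rose by 2.57 ± 0.22 in LSD1-labelled cells (adjusted p = 2.55e-07), and its 0.43 ± 0.21 in control cells did not pass (adjusted p = 0.104), although the 3 control libraries of day 7 were all above those of day 0. Cyc1, the heme protein cytochrome c1 that hands electrons to cytochrome c, had 732, 777 and 953 CPM in LSD1-labelled cells at day 7 and 141, 91.9 and 111 CPM at day 0, and 167, 169.9 and 182 CPM in control cells at day 7 and 130, 150 and 139 CPM at day 0. Its difference between day effects, 2.53 ± 0.21 (adjusted p = 1.1e-06), was the largest of the 51 members, and the control change alone did not pass (0.31 ± 0.15, adjusted p = 0.105). Uqcrfs1, the Rieske iron-sulfur protein, rose more than any other member in LSD1-labelled cells (3.06 ± 0.22, adjusted p = 4.83e-08) and by 1.22 ± 0.21 in control cells (adjusted p = 0.000367). Uqcrq, a small subunit, had 716, 663 and 674 CPM in LSD1-labelled cells at day 7, against 158, 163 and 159 CPM in control cells at day 7. At day 7 it had the lowest adjusted p of all members between the labels (2.10 ± 0.13, adjusted p = 2.59e-08), while its change with day in control cells was -0.03 ± 0.12 (adjusted p = 0.847).

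Complex IV divided into subunits, which rose in LSD1-labelled cells, and assembly factors, which were mixed. All 7 tested subunits rose in LSD1-labelled cells (median 2.28) and all 7 were higher than in control cells at day 7 (median 1.06). Cox4i1, the common isoform of the regulatory subunit IV, had 1259, 1121 and 1360 CPM in LSD1-labelled cells at day 7 and 352, 178 and 231 CPM at day 0, and 416, 398 and 522 CPM in control cells at day 7 and 319.5, 423 and 322 CPM at day 0. The control days overlapped, and the rise was called only in LSD1-labelled cells (2.30 ± 0.22, adjusted p = 9.95e-07), against 0.33 ± 0.21 in control cells (adjusted p = 0.224), with a difference of 1.97 ± 0.30 (adjusted p = 0.000158). Cox5a rose in both labels, by 2.28 ± 0.21 in LSD1-labelled and 0.90 ± 0.21 in control cells (adjusted p = 6.57e-07 and 0.00296). Cox5b had 149, 133 and 141 CPM in LSD1-labelled cells at day 7, against 46.7, 48.1 and 47.9 CPM in control cells at day 7. Its change with day in control cells was 0.17 ± 0.17 (adjusted p = 0.427). Cox6c and Cox7c were the subunits with the largest control changes, 1.75 ± 0.32 and 1.63 ± 0.27 (adjusted p = 0.000715 and 0.000279). Neither was called in the test of the difference between day effects, where Cox6c had 0.96 ± 0.45 and Cox7c 0.65 ± 0.37 (adjusted p = 0.0887 and 0.153). Cox5b and Cox6c each have 2 near-identical copies elsewhere in the genome and Cox7c has 3, so their counts are uncertain. Cox7a2l, which joins complexes III and IV into supercomplexes, had 308, 259 and 263 CPM in LSD1-labelled cells at day 7 and 111, 65.3 and 78.7 CPM at day 0, and 107, 107 and 133 CPM in control cells at day 7 and 55.3, 82.4 and 62.8 CPM at day 0. It rose by 1.71 ± 0.20 in LSD1-labelled cells (adjusted p = 5.11e-06) and by 0.79 ± 0.19 in control cells (adjusted p = 0.00487).

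Among the 9 assembly factors of complex IV, 7 rose in LSD1-labelled cells and 6 in control cells. Cox17, the copper chaperone of the complex, had 73.6, 64.2 and 56.7 CPM in LSD1-labelled cells at day 7 and 19.1, 14.7 and 18.1 CPM at day 0, and 29.1, 24.7 and 37.4 CPM in control cells at day 7 and 14.8, 13.9 and 11.7 CPM at day 0. It rose in both labels, by 1.90 ± 0.18 (adjusted p = 5.58e-07) and 1.17 ± 0.17 (adjusted p = 0.000131), and its difference of 0.73 ± 0.24 (adjusted p = 0.0224) was lost when any 1 of 5 libraries was left out, with adjusted p of up to 0.0579. Cox16 rose by 1.33 ± 0.15 in LSD1-labelled cells and by 0.99 ± 0.15 in control cells (adjusted p = 4.2e-06 and 0.000164). 88.7% of its transcript overlaps an annotated gene on the same strand, Gm20498, so its reads cannot be assigned to it alone. Cox10, which makes heme O, was higher in LSD1-labelled cells at both days, by 1.33 ± 0.12 at day 7 and 0.45 ± 0.12 at day 0 (adjusted p = 5.74e-07 and 0.0123). Cox15, which turns heme O into heme A, rose by 1.34 ± 0.11 in LSD1-labelled and 0.58 ± 0.11 in control cells. Cox18, which moves the tail of the mitochondrially encoded subunit COX2 across the inner membrane, was higher in LSD1-labelled cells at both days and was called with day in neither label. It had 43.9, 41.8 and 45.1 CPM in LSD1-labelled cells at day 7 and 39.3, 33.7 and 39.1 CPM at day 0, and 24.6, 25.9 and 25.6 CPM in control cells at day 7 and 22.1, 24.1 and 22.9 CPM at day 0. The label differences were 0.79 ± 0.10 at day 7 and 0.70 ± 0.10 at day 0 (adjusted p = 2.44e-05 and 0.000426), and the day changes were 0.22 ± 0.10 and 0.14 ± 0.10 (adjusted p = 0.0674 and 0.298). Cox20, a chaperone of COX2, had 28.6, 25.1 and 22.4 CPM in LSD1-labelled cells at day 7 and 33.9, 25.3 and 26.3 CPM at day 0, and 28.1, 30.8 and 24.2 CPM in control cells at day 7 and 20.5, 18.2 and 18.4 CPM at day 0. It was the sole member called lower in the test of the difference between day effects (-0.71 ± 0.21, adjusted p = 0.0132). 87.5% of the Cox20 transcript overlaps Hnrnpu on the opposite strand, and the strand setting of the counting is not given in the sources used here, so reads of the 2 genes cannot be told apart.

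ATP synthase rose in LSD1-labelled cells in both of its parts. All 5 F1 genes rose there (median 2.28), and 3 of the 5 rose in control cells (median 0.36). Atp5b, the catalytic beta subunit, had 5570, 5564 and 6272 CPM in LSD1-labelled cells at day 7 and 1312, 989 and 1069 CPM at day 0, and 1637, 1578 and 1613 CPM in control cells at day 7 and 1163, 1357 and 1230 CPM at day 0. It was the highest of the 51 members per kilobase in all 4 groups, at 3088 ± 217 CPM per kb (SD) in LSD1-labelled cells at day 7 and 857 ± 15.9 CPM per kb in control cells at day 7. Its change with day was 2.37 ± 0.13 in LSD1-labelled cells (adjusted p = 3.35e-09) and 0.37 ± 0.12 in control cells (adjusted p = 0.0254). Atp5a1, the alpha subunit, had 2637, 2639 and 3025 CPM in LSD1-labelled cells at day 7 and 725, 579 and 619.5 CPM at day 0, and 989.8, 929 and 1002 CPM in control cells at day 7 and 709, 828 and 742 CPM at day 0. It rose by 2.11 ± 0.12 in LSD1-labelled cells (adjusted p = 5.38e-09) and by 0.36 ± 0.12 in control cells (adjusted p = 0.0212). The control rises of both were small, and each was lost when 1 library was left out (any of 4 libraries for Atp5a1, adjusted p up to 0.09, and 5 for Atp5b, up to 0.102). Atp5pb, the b subunit of the stalk, had the third lowest adjusted p of the members in LSD1-labelled cells (2.09 ± 0.11, adjusted p = 2.91e-09) and rose by 0.55 ± 0.11 in control cells (adjusted p = 0.00106).

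Atp5g1, Atp5g2 and Atp5g3 encode the same mature c subunit of the membrane ring and differ in their import peptides. Per kilobase, Atp5g3 had 830 ± 51.2 CPM per kb (SD) in LSD1-labelled cells at day 7, Atp5g1 65.99 ± 7.83 and Atp5g2 13.2 ± 3.03, and the order was the same in the other 3 groups. Atp5g3 had 607, 551 and 619.9 CPM in LSD1-labelled cells at day 7 and 147, 66.6 and 95.4 CPM at day 0, and 171, 215 and 237 CPM in control cells at day 7 and 119, 185 and 123 CPM at day 0. The control days overlapped, and the change with day was called in LSD1-labelled cells (2.52 ± 0.26, adjusted p = 1.81e-06) but not in control cells (0.55 ± 0.25, adjusted p = 0.086). Atp5g1 rose in LSD1-labelled cells (1.58 ± 0.18, adjusted p = 4.02e-06), and its control change was -0.06 ± 0.18 (adjusted p = 0.813). Atp5g2 was the one of the 3 that rose in both labels, by 1.75 ± 0.32 and 1.19 ± 0.33 (adjusted p = 0.000308 and 0.00916), at 8.28, 6.71 and 10.6 CPM in LSD1-labelled cells at day 7, against 3.03, 1.503 and 3.07 CPM at day 0. Atp5g1 has 1 and Atp5g2 2 near-identical copies elsewhere in the genome, and Atp5g3 has 0. Of the 2 transcripts of Atp5g1 only 1 was used. The counts of Atp5g1 and Atp5g2, and with them the order of the 3 genes, are therefore uncertain. Atp5l, the g subunit at the dimer interface, had 32.1, 25.9 and 24.8 CPM in LSD1-labelled cells at day 7 and 15.2, 8.45 and 16.8 CPM at day 0, and 9.13, 10.9 and 13.2 CPM in control cells at day 7 and 24.97, 34.3 and 16.6 CPM at day 0. It rose in LSD1-labelled cells (1.04 ± 0.28, adjusted p = 0.00526) and fell in control cells (-1.19 ± 0.28, adjusted p = 0.00399). Atp5h, the d subunit of the stalk, had 97.4, 88.8 and 92.6 CPM in LSD1-labelled cells at day 7 and 92.9, 45.2 and 49.4 CPM at day 0, and 34.7, 39.8 and 36.5 CPM in control cells at day 7 and 56.0, 63.2 and 59.3 CPM at day 0. Its rise in LSD1-labelled cells was 0.57 ± 0.21 (adjusted p = 0.028) and its control change -0.69 ± 0.21 (adjusted p = 0.0183). Both calls of Atp5h were lost when any 1 of several libraries was left out (4 libraries for the rise and 3 for the control change, adjusted p up to 0.107 and 0.0625). Atp5l has 10 near-identical copies and Atp5h 3, so their counts depend on how reads with several places were treated, which is not given in the sources used here.

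In all, 15 tested members have a copy of at least 95% identity over at least 80% of the transcript. They rose in 14 of 15 cases in LSD1-labelled cells (median 1.72), and the 36 members without such a copy in 34 of 36 (median 1.85). Among the 31 members with neither a copy nor an overlap of 10% or more with another gene, 29 rose in LSD1-labelled cells, 15 rose in control cells and 28 were higher at day 7 in LSD1-labelled cells than in control cells. The shares of all tested genes were 32.6%, 23.7% and 30.2% in the same order.

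Before induction the labels differed little in these genes when all libraries were used. 3 members were higher in LSD1-labelled cells at day 0 and 2 lower, against 12.8% and 13% of all tested genes, and the median log2 difference was 0.02. The higher ones were the complex IV assembly factors Cox18, Cox10 and Cox20 (0.58 ± 0.15, adjusted p = 0.013). The lower ones were Sdha (-0.39 ± 0.11, adjusted p = 0.0222) and Atp5l (-0.91 ± 0.28, adjusted p = 0.0311). Each of these calls except that of Cox18 was lost when some single library was left out, with adjusted p of up to 0.0624 for Cox10, 0.0564 for Cox20, 0.1 for Sdha and 0.149 for Atp5l. With libraries scaled by total counts alone, 8 members were higher and 0 lower. Under that scaling the median log2 difference was 0.163 over the members and 0.156 over all tested genes. The shares of all tested genes called under it are not given here. Of the markers, 3 fat cell genes and 7 preadipocyte and fibroblast genes were lower in LSD1-labelled cells at day 0, and 1 preadipocyte and fibroblast gene was higher. The result depended on replicate 1 of the LSD1-labelled cells. The median of the members relative to control cells at day 0 was 0.36 log2 units in that library, against -0.33 and -0.18 in the other 2. Without it, 21 members were lower in LSD1-labelled cells and 3 higher, with a median of -0.23, where 25.9% of 13522 tested genes were lower and 22.6% higher. The 21 were 4 F1 genes, 5 of the stalk and Fo, 2 of complex II, 6 of complex III and 4 of complex IV, and no assembly factor was among them. Cox4i1 had a log2 difference of -0.80 ± 0.15 without the library (adjusted p = 0.000187), Uqcrc1 -0.58 ± 0.11 (adjusted p = 0.000278) and Sdhd -0.54 ± 0.14 (adjusted p = 0.00302). Cox18, Cox10 and Cox20 were again the 3 higher members. The other comparisons without that library called 50 members higher with day in LSD1-labelled cells, 48 higher at day 7 between labels, and 45 higher and 1 lower in the test of the difference between day effects. In control cells, 37 members rose and 2 fell. The shares of all tested genes called in these 4 comparisons without that library are not given here, so the counts only describe the members.

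Other genes of the same machinery were read from a list of assembly and stability factors, with the members themselves left out. Of its 26 tested genes, 21 rose and 2 fell with day in LSD1-labelled cells, and 14 rose and 2 fell in control cells. Over all tested genes, 32.6% rose and 37.2% fell in LSD1-labelled cells, and 23.7% rose and 24.5% fell in control cells. At day 7, 17 of the 26 were higher and 1 lower in LSD1-labelled cells than in control cells. The shares of all tested genes were 30.2% and 33.4%. Cycs, the electron carrier cytochrome c between complexes III and IV, had 83.4, 57.1 and 51.8 CPM in LSD1-labelled cells at day 7 and 2.05, 1.43 and 1.72 CPM at day 0, and 9.13, 10.3 and 12.2 CPM in control cells at day 7 and 1.73, 1.29 and 1.63 CPM at day 0. Its rise of 5.21 ± 0.24 in LSD1-labelled cells (adjusted p = 7.48e-10) and 2.76 ± 0.23 in control cells (adjusted p = 9.29e-07) was larger than that of any tested member. Atpaf2, a chaperone for the alpha subunit of F1, rose by 2.80 ± 0.16 and 0.70 ± 0.15 (adjusted p = 5.14e-09 and 0.00207). Atpif1, which inhibits ATP hydrolysis by ATP synthase, went against the enzyme's own genes. It had 114, 99.9 and 112 CPM in LSD1-labelled cells at day 7 and 224, 159 and 164 CPM at day 0, and 154, 174 and 125 CPM in control cells at day 7 and 144, 168 and 143 CPM at day 0. It fell in LSD1-labelled cells (-0.75 ± 0.15, adjusted p = 0.000745), did not pass in control cells (-0.01 ± 0.15, adjusted p = 0.984) and was lower in LSD1-labelled than in control cells at day 7 (-0.48 ± 0.15, adjusted p = 0.016). Uqcc2, an assembly factor of complex III, fell with day in both labels (-0.63 ± 0.13 and -0.91 ± 0.13, adjusted p = 0.000816 and 0.000105) and was higher in LSD1-labelled cells at day 7 (0.72 ± 0.13, adjusted p = 0.000346).

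Of 8 regulators of these genes, 5 rose and 1 fell with day in LSD1-labelled cells, and 4 rose and 1 fell in control cells. Over all tested genes, 32.6% rose and 37.2% fell in LSD1-labelled cells, and 23.7% rose and 24.5% fell in control cells. The regulator that fell in LSD1-labelled cells was Esrrg, the estrogen-related receptor gamma (-2.49 ± 1.04, adjusted p = 0.0462). It had 0.28, 0 and 0.10 CPM in LSD1-labelled cells at day 7 and 0.16, 1.32 and 0.66 CPM at day 0, so the days overlapped and the value rests on few counts (91 over all 12 libraries). Esrra, the estrogen-related receptor alpha, had 157, 149 and 174 CPM in LSD1-labelled cells at day 7 and 28.1, 24.5 and 25.6 CPM at day 0, and 30.2, 28.03 and 38.3 CPM in control cells at day 7 and 19.9, 20.9 and 19.9 CPM at day 0. It was higher at day 7 in LSD1-labelled than in control cells by 2.31 ± 0.13 (adjusted p = 1.3e-08). Ppargc1b, a coactivator of mitochondrial genes, had 53.8, 58.3 and 51.3 CPM in LSD1-labelled cells at day 7, against 13.8, 10.9 and 8.66 CPM in control cells at day 7, and was higher by 2.29 ± 0.21 (adjusted p = 8.77e-07). These 2 of the 8 were the regulators called higher at day 7, where 30.2% of all tested genes were higher. Nrf1 itself had 32.2, 34.1 and 35.6 CPM in LSD1-labelled cells at day 7 and 32.0, 46.8 and 47.5 CPM at day 0, and 27.7, 29.7 and 27.3 CPM in control cells at day 7 and 37.9, 35.5 and 37.7 CPM at day 0. Its change with day was not called in LSD1-labelled cells (-0.31 ± 0.14, adjusted p = 0.0632), it fell in control cells (-0.39 ± 0.14, adjusted p = 0.0348), and the labels did not differ past the threshold at day 7 (0.27 ± 0.14, adjusted p = 0.116).

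The promoters of the members were compared with the peak lists next. A peak counted when it overlapped the 1000 bp on either side of an annotated start by at least 1 bp. LSD1 peaks lay at the starts of 51 of the 56 members in LSD1-labelled cells at day 7, all of them tested members, and at 80.9% of all tested genes with a start. They lay at 48 members in LSD1-labelled cells at day 0 (71.4% of tested genes), at 41 in control cells at day 7 (59.8%) and at 13 in control cells at day 0 (23%). Among the tested members the shares were 100%, 94.1%, 80.4% and 25.5%. The lists themselves held 27221, 13997, 8303 and 3024 peaks in the same order, so the number of member peaks moved with the length of the list, and with 1 sample each and no depth given no difference between lists was tested. Nrf1 peaks lay at 14 members at day 7, against 13.1% of tested genes, and at 11 members at day 0, against 12.1%, in lists of 1629 and 2078 peaks. These were 27.5% and 21.6% of the tested members.

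**Figure D4:**
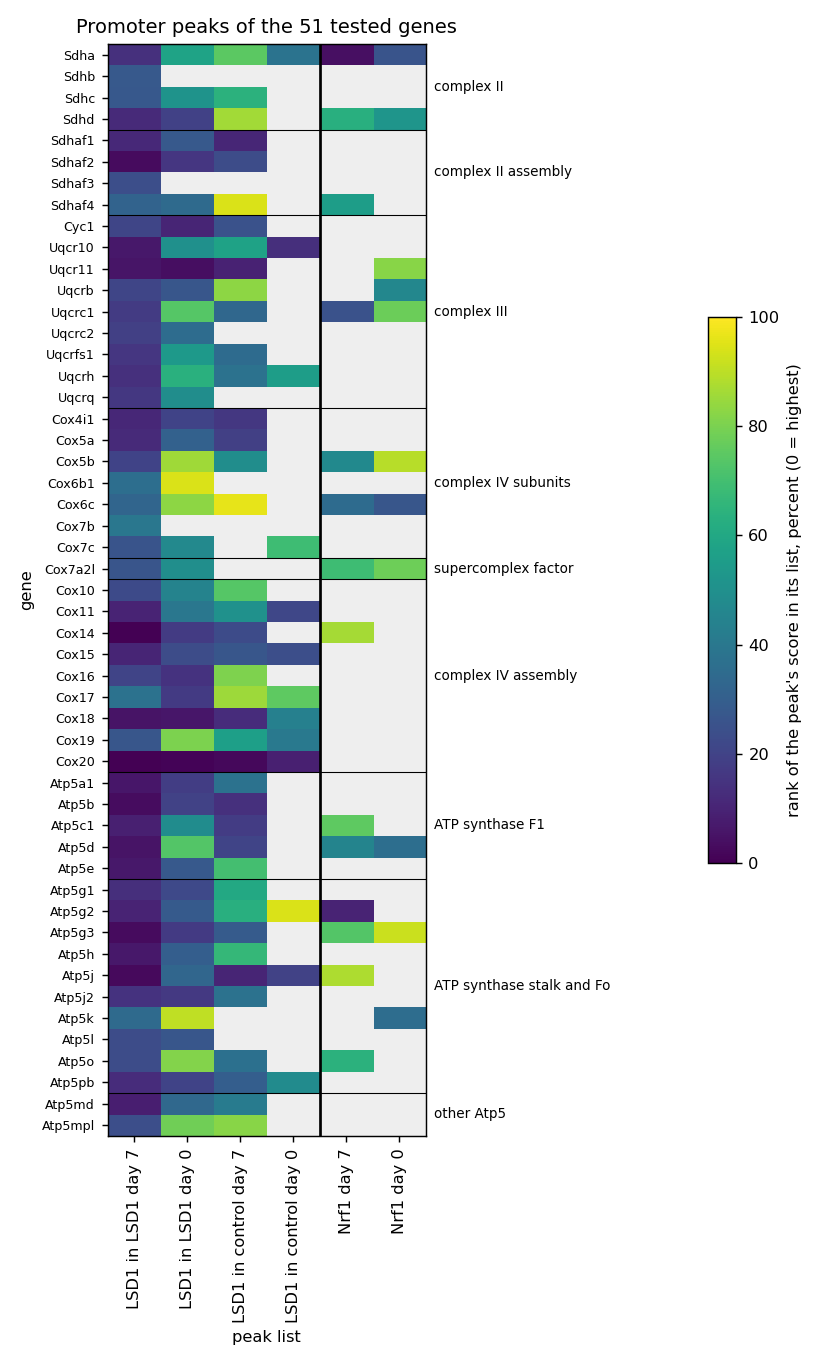
Rows are the 51 tested genes and columns the 6 peak lists; the colour gives the rank of the score of the gene's promoter peak within its own list in percent, with 0 for the highest score, and grey means no peak within 1000 bp of a start. The first column is filled for all 51 genes, the column of control cells at day 0 for 13, and the Nrf1 columns for 14 and 11.

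In the shortest LSD1 list, that of control cells at day 0, the share of tested members with a peak (25.5%) was near that of all tested genes (23%). By role, these peaks lay at 6 of the 9 complex IV assembly factors, 3 of the 10 stalk and Fo genes, 2 of the 9 complex III genes, 1 of the 4 complex II subunits, 1 of the 11 complex IV subunits and none of the 5 F1 genes or of the remaining members. The counts per role are small and were not tested. 12 members had a promoter peak in all 4 LSD1 lists, 30 in 3 lists, 9 in 1 or 2 lists and 5 in none, and those 5 were the members below the count filter. Cox20 had the highest scoring member peak in all 4 LSD1 lists, shared in LSD1-labelled cells at day 7 with Cox14, at the authors' peak scores of 3100 in LSD1-labelled cells at day 7, 1987 at day 0, and 594 and 145 in control cells at day 7 and day 0. In LSD1-labelled cells at day 7 it spanned chr1:178317909-178321694 (build mm10). Cox20 was 1 of the 3 members whose change with day was not called in LSD1-labelled cells. Members with a peak in all 4 LSD1 lists had a median log2 fold change with day of 1.55 in LSD1-labelled cells and 0.69 in control cells, members with 3 lists 1.95 and 0.39, and members with 1 or 2 lists 1.71 and 0.79. Those with an Nrf1 peak had medians of 1.96 and 0.58, and those without one 1.52 and 0.45. The ranges of these sets overlapped widely, and no test was made.

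17 members had an Nrf1 peak at a start. 8 had one at both days: Sdha and Sdhd of complex II, Uqcrc1 of complex III, Cox5b, Cox6c and Cox7a2l of complex IV, and Atp5d and Atp5g3 of ATP synthase. At day 7 alone there were 6 (Atp5c1, Atp5g2, Atp5j, Atp5o, Cox14 and Sdhaf4), and at day 0 alone 3 (Atp5k, Uqcr11 and Uqcrb). Sdha had the highest score of the members at both days, 425 at day 7, where it ranked 65 in its list, and 107 at day 0. The next at day 7 were Atp5g2 with 285 and Uqcrc1 with 177. The best peak of each member had a median rank percent of 59.4 in the Nrf1 list of day 7 and 52.1 in that of day 0, where 0 is the highest score.

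The promoters from 250 bases before to 50 bases after the start were taken from RefSeq (build GRCm38.p6, the assembly called mm10 in the peak lists) for 42 of the 56 members, with 46 promoters. Letters of 5 motifs were searched on both strands, overlapping matches included. The Nrf1 motif GCGCANGCG was found in 13 of the 42 genes (31.0%), in 7.0% of all 27025 genes with a promoter in the table and in 15.1% of the tested genes. The GABPA/ETS core CCGGAAG was found in 19 (45.2%), against 9.9% of all and 19.6% of the tested genes. The motif TCAAGGTCA of estrogen-related receptors was found in 2 (Atp5g3 and Sdhd), the YY1 motif AAGATGGCG in 3 and the Sp1 box GGGCGGGG in 10. These were 4.8%, 7.1% and 23.8% of the members, against 0.3%, 3.5% and 36.4% of the tested genes and 0.5%, 1.6% and 19.6% of all genes. CpG density was alike in the members and the tested genes, with a median of 20 CpG per 300 bases in each, against 7 over all promoters. The Nrf1 motif was present in 10 of the 15 members with an Nrf1 peak and a promoter sequence and in 3 of the 27 without a peak. A match of letters describes the sequence and is no evidence of a site in use.

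**Figure D5:**
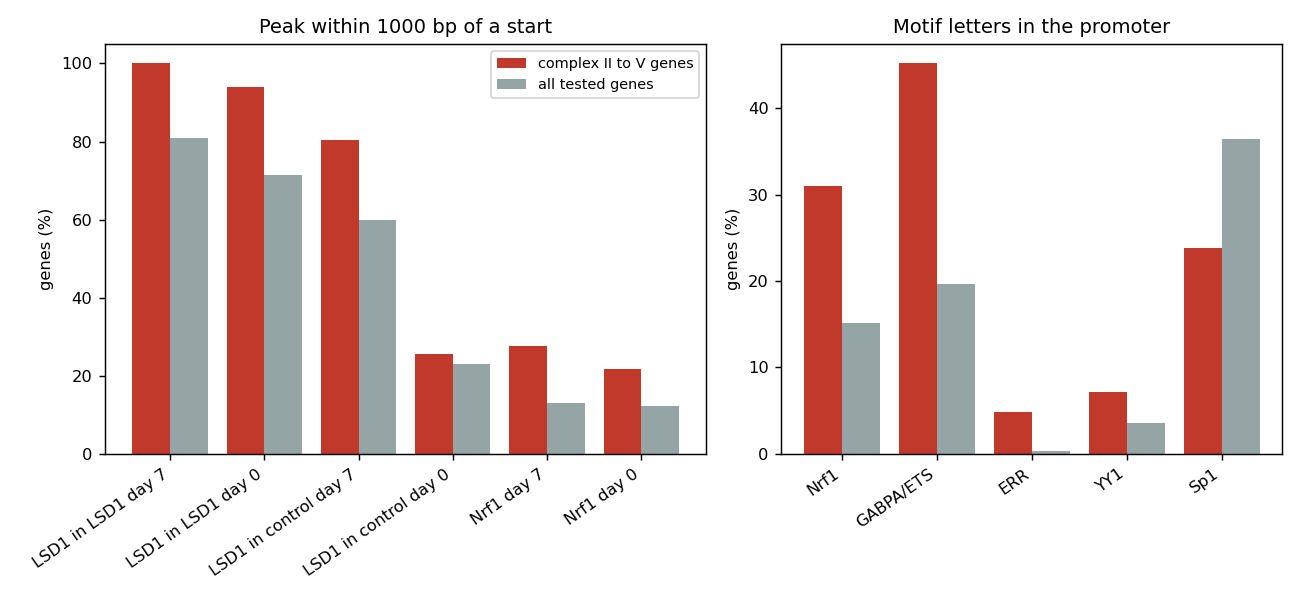
Bars give the share of genes in percent on axes that start at 0, for the complex II to V genes (red) and all tested genes (grey); the left panel counts genes with a peak within 1000 bp of a start in each list, and the right panel genes with the letters of each motif between 250 bases before and 50 bases after the start. In the right panel the members stand above the tested genes for Nrf1 (31.0% and 15.1%) and GABPA/ETS (45.2% and 19.6%) and below them for Sp1 (23.8% and 36.4%).

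6 promoters are printed. The first 5 lie under an Nrf1 peak and hold the Nrf1 letters counted above, and that of Atp5j is shown as 1 shared with another gene. The Nrf1 peak of Atp5j lies near its other annotated start and more than 1000 bp from the start printed here. Each is written 5′ to 3′ on the strand of its gene with the motif letters in capitals, in build GRCm38.p6. They lie at chr13:74350191-74350490 on the minus strand for Sdha, chr9:50603800-50604099 on the minus strand for Sdhd and chr9:108936398-108936697 on the plus strand for Uqcrc1. Those of Atp5g2, Atp5g3 and Atp5j lie at chr15:102670998-102671297, chr2:73911277-73911576 and chr16:84834927-84835226, all on the minus strand.
Sdha promoter: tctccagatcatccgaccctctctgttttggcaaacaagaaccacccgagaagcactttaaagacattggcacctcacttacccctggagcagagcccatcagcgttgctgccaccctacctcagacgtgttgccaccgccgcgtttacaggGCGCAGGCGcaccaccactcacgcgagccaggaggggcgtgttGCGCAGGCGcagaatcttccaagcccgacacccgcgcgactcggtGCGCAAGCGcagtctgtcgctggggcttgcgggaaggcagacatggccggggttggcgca
Sdhd promoter: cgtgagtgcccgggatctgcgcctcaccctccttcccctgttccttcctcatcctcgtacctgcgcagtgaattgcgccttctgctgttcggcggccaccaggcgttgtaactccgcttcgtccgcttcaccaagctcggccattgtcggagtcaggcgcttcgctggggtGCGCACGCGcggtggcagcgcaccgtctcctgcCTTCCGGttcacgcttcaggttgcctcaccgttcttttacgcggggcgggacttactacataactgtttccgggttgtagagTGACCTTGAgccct
Uqcrc1 promoter: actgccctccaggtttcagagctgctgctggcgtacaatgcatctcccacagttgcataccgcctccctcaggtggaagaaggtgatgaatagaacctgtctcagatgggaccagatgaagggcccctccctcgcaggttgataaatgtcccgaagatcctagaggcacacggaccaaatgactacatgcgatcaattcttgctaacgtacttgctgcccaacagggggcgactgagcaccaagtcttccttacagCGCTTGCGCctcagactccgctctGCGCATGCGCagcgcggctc
Atp5g2 promoter: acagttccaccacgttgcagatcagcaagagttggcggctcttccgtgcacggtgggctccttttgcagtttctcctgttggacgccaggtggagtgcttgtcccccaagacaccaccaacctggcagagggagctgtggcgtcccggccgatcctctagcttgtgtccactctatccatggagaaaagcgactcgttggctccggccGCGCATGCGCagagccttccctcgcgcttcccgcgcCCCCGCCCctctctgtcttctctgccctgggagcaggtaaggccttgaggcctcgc
Atp5g3 promoter: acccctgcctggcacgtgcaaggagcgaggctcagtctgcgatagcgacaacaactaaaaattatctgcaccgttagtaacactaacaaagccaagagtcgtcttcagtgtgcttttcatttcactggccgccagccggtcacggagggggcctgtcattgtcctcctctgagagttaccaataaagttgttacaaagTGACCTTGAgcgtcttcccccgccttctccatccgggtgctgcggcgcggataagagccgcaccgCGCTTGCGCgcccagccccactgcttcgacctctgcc
Atp5j promoter: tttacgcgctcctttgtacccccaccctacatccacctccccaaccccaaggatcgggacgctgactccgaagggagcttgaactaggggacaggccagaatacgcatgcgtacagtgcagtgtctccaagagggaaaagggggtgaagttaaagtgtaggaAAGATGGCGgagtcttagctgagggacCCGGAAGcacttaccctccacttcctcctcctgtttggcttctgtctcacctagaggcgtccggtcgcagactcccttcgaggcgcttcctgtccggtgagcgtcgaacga
Positions are counted from the start at 0. The Sdha promoter holds 3 separate Nrf1 matches, which begin at -98, -55 and -10, and Sdha is the member with the highest Nrf1 score. The Sdhd promoter holds the Nrf1 letters from -79, an ETS match on the opposite strand from -46 and the estrogen-related receptor letters on the opposite strand from 36. Uqcrc1 holds its 3 Nrf1 matches after the start, from 6, 30 and 31, and those from 30 and 31 are 1 palindromic stretch read on both strands. The Atp5g2 promoter likewise has an overlapping pair from -42 and -41, and a Sp1 box on the opposite strand from -6. Atp5g3 has the estrogen-related receptor letters from -52 and the Nrf1 letters from 13, both on the opposite strand. The Atp5j promoter holds a YY1 match from -88 and an ETS match from -61 and is shared with Gabpa, which starts 102 bp away on the opposite strand.

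Shared promoters were frequent among the members. 18 of the 56 (32.1%) have another gene starting within 1000 bp, against 19.3% of the tested genes. 17 of these pairs run on opposite strands, and 16 of the neighbours were tested. Between day 7 and day 0 of LSD1-labelled cells, all 16 members of these pairs rose (median 2.10), while of their neighbours 5 rose, 6 fell and 5 were not called (median 0.28). The neighbours were thus near the shares of all tested genes, of which 32.6% rose and 37.2% fell. At day 7, 15 of the 16 members and 3 of the neighbours were higher in LSD1-labelled than in control cells, and 3 neighbours were lower. Over all tested genes, 30.2% were higher and 33.4% lower in that comparison. Stxbp4 beside Cox11 had a log2 fold change with day of -1.75 in LSD1-labelled cells, against 2.17 for Cox11 itself, and Zmat5 beside Uqcr10 had -1.14, against 1.14 for Uqcr10. Cutc beside Cox15, with 2.39, and Timm8b beside Sdhd, with 1.08, rose with their member. Timm8b encodes a small chaperone of the mitochondrial intermembrane space. These pairs were named after their values were seen.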

How the data were processed

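RNA-seq was available for 12 libraries (4 groups of 3), labelled as biological replicates; the labels do not say whether these came from separate cultures, so p-values measure the spread between these libraries. The authors deposited unnormalised read counts for each RefSeq transcript. TopHat2 (version 2), HOMER, edgeR and DESeq 1.8.3 and the build mm10 are named, without a role, in the submitters' processing notes. Strand setting and the handling of reads with several places are not given in the sources used here. The authors deposited the ChIP-seq peaks as 1 list per sample with a peak score. Bowtie2 and MACS 1.41 (version as given) are named in the submitters' processing notes; the input, cut-off and depth behind each list are not given in the sources used here.

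Each of the 30521 transcript rows was named by its accession, and for each gene only the transcript with the most reads on average was used. 1200 rows, with 0.896% of the counts, stayed unnamed. Each was kept as a gene of its own and is among the 24343 genes. edgeR 4.0.16 in R 4.3.3 was run with filterByExpr, TMM scaling and a robust quasi-likelihood model with 1 mean per group (12 libraries together), and p-values were adjusted by Benjamini-Hochberg over 13355 genes, with a threshold of 0.05, two-sided. CPM use TMM-scaled library sizes. Fold changes are log2 values of the first named group over the second, with SE. Near-identical copies were searched with blastn 2.17.0. Peaks have no replicates and were described without a test. The code was tested on simulated data.

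The members and lists were chosen with earlier results of these data known. Named members were the core subunits, up to 4 members per direction and comparison by smallest adjusted p, every called member on the minority side, members below the count filter, members with an Nrf1 peak and the top 3 LSD1 peaks per list, and up to 2 genes per direction of each further list. Other members were named after their values were seen, to complete a count. Alternatives were DESeq2, other scalings, filters and transcript sums, removal of length or GC trends, a replicate block, single libraries left out, and other peak windows and scores. Library totals of 27512273 to 37565527 counts cover all transcript rows. The tested genes, with 1 transcript each, had library sizes of 19948865 to 26260519 counts, which set the counting precision. The 6 input samples were not used.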

Additional observations from a re-analysis of the deposited data

Results flagged for a closer look

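For 37 members the change between day 7 and day 0 differed between LSD1-labelled and control cells by a test of that difference (edgeR's quasi-likelihood test with Benjamini-Hochberg adjustment). The values below are log2 fold changes with day in LSD1-labelled cells minus those in control cells. The 4 subunits of complex II had Sdha 1.51, Sdhb 2.14, Sdhc 1.11 and Sdhd 1.58, and 2 of its assembly factors had Sdhaf1 1.57 and Sdhaf2 0.56. The 9 complex III genes had Cyc1 2.53, Uqcrc1 2.14, Uqcrc2 1.55, Uqcrfs1 1.85, Uqcrq 1.83, Uqcrb 1.56, Uqcrh 1.5, Uqcr10 1.32 and Uqcr11 1.47, of which Cyc1 was the largest of all members. The complex IV subunits had Cox4i1 1.97, Cox5a 1.38, Cox5b 1.26, Cox6b1 1.09 and Cox7b 0.79, the supercomplex factor Cox7a2l had 0.92, and the assembly factors had Cox10 0.88, Cox11 1.02, Cox15 0.76 and Cox17 0.73. The F1 genes had Atp5a1 1.75, Atp5b 2.00, Atp5c1 1.8 and Atp5d 2.09, and the stalk and Fo genes had Atp5g1 1.64, Atp5g3 1.98, Atp5h 1.26, Atp5j 0.74, Atp5l 2.23, Atp5o 1.56 and Atp5pb 1.54. Cox20, at -0.71, was the sole member with a smaller change in LSD1-labelled cells, and most of its transcript overlaps Hnrnpu. Atp5l and Atp5h moved in opposite directions in the 2 labels, and both have near-identical copies elsewhere in the genome.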

How the results depend on the processing

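23 alternatives were run for each comparison between 2 groups and 22 for the test of the difference between day effects. The shares of all tested genes called higher or lower under each are not given in this section. The counts of called members below therefore only describe the members. Scaling by total counts alone called 1 member lower with day in LSD1-labelled cells, moved the control median to 0.70, and at day 7 gave 1 lower member and a median of 0.87. It gave 8 higher and 0 lower members at day 0, and 2 lower members and a median of 0.88 for the difference. That scaling moved the median of all genes to -0.31, 0.15, -0.30, 0.16 and -0.45 in the same order of comparisons, and relative to that median the members stood at 1.82, 0.56, 1.17, 0.01 and 1.33. Removing a length trend called 1 member lower with day in LSD1-labelled cells, 2 lower at day 7 (median 0.92), 10 lower at day 0 and 2 lower in the difference. Removing a GC trend called 5 lower at day 0 and 0 lower in the difference. With only the libraries of the 2 groups compared, 0 were lower at day 0. The cause was not tested.

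The replicate block, with 48, 27, 41, 3 and 36 members higher, gave 1 lower at day 0. With the replicate block, the length trend gave 1 lower in LSD1-labelled cells, 2 lower at day 7 (median 0.92), 9 lower at day 0 and 2 lower in the difference, and the GC trend gave 0 lower in the difference. Same-numbered libraries deviated together with correlations of -0.25 to 0.11, so the numbers do not pair them, and 0 or 1 of 3 libraries correlated best with its own number in each comparison.

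Leaving out single libraries gave 47 to 50 members higher and 0 to 0 lower in LSD1-labelled cells (median 1.65 to 1.97), 20 to 37 higher and 1 to 2 lower in control cells (0.45 to 0.61), 38 to 48 higher and 0 to 0 lower at day 7 (1.10 to 1.27), 2 to 4 higher and 0 to 21 lower at day 0 (-0.24 to 0.13), and 32 to 45 higher and 1 to 1 lower in the difference (1.07 to 1.58). The control count was 20 without replicate 3 of day 7 and 37 without replicate 1 of the LSD1-labelled cells at day 0. At day 0, Atp5h lay between -0.33 without that library and 0.26 without replicate 2 of its group, against 0.07 with all libraries. With peak scores of at least 100, 5 members kept an LSD1 peak in control cells at day 0. An Nrf1 peak was kept by 6 members at day 7 and by 2 at day 0. Of all tested genes with a start, 6.29%, 7.31% and 4.99% had such a peak, in the same order. At this cut-off the share of tested members with an Nrf1 peak at day 0 was below that of all tested genes. For the LSD1 list of control cells at day 0 and the Nrf1 list of day 7 it stayed above. These counts are small and were not tested. Counts of LSD1 peaks follow list length, and the depth behind the lists is not given in the sources used here.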

Other observations

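Among the Atp5 genes outside the classical subunits, Atp5md and Atp5mpl, which encode small membrane proteins of ATP synthase, rose in both labels. Atp5md had 25.4, 18.9 and 16.7 CPM in LSD1-labelled cells at day 7 and 8.39, 5.55 and 4.64 CPM at day 0, and 6.73, 8.62 and 13.3 CPM in control cells at day 7 and 4.48, 5.40 and 5.20 CPM at day 0. Its rise was 1.72 ± 0.28 (SE) in LSD1-labelled cells and 0.93 ± 0.28 in control cells by edgeR's quasi-likelihood test (adjusted p = 0.000104 and 0.015). Atp5mpl rose by 1.42 ± 0.23 and 0.97 ± 0.23 (adjusted p = 0.000113 and 0.00383). Atp5md has 3 near-identical copies in the genome. The difference between the day effects of either gene was not past the threshold (0.79 ± 0.39 and 0.45 ± 0.32, adjusted p = 0.105 and 0.258).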
